A study of Mus musculus with 9 samples.

Results

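The 42 genes described here are those of mouse fatty acid oxidation, together with 1 ketone body enzyme and further targets of the nuclear receptor PPARalpha. They were taken by gene name from a list, 27945 genes having a count in the series. All 42 passed the filter on low counts, among 18113 genes tested. Polyadenylated RNA was sequenced from 9 liver libraries, 3 labelled treated, 3 labelled model and 3 labelled control. The series concerns liver damage by gefitinib, an inhibitor of the epidermal growth factor receptor kinase, and the labels say no more of the model group. Which agent the treated mice were given, and whether gefitinib was given to them as well, is not in the labels, and neither is a dose, time, strain, age, sex or feeding state for any group. They call the samples mouse liver cells with liver as source, so whole tissue and isolated cells cannot be told apart. Nothing in them ties each library to an animal of its own. P-values therefore measure the spread between libraries, which may in part be technical.

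Long-chain fatty acids are joined to coenzyme A, carried into mitochondria as carnitine esters and shortened there by beta oxidation, which in liver feeds the synthesis of ketone bodies. Peroxisomes shorten very long and branched chains by a related set of enzymes, and cytochromes P450 of the Cyp4a family start omega oxidation at the other end of the chain. PPARalpha binds fatty acids and, in liver, raises transcription of genes of all 3 routes, as known from fasting and from fibrate drugs.

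The libraries held 56440871 to 60665156 estimated counts. Levels are given as CPM, counts scaled to a common library size by TMM, unless FPKM is named. The 13 hepatocyte markers found of the 14 listed were detected in each group, with Alb and Apoa1 among them, and summed to 88000 to 107000 CPM in treated, 112000 to 119000 CPM in model and 110000 to 125000 CPM in control libraries. In treated relative to model livers 2 of the 13 (Apoa2 and Serpina1c) were called lower and 1 (Hnf4a) higher, against 4.44% and 5.21% of all genes. Relative to control livers 5 of the 13 (Apoa2, Apob, Ttr, Serpina1c and Ass1) were called lower and none higher, against 8.47% and 9.36% of all genes. Skeletal muscle markers, 13 in number, differed between libraries. They summed to 155 to 192 CPM in the treated libraries and to 222 CPM in model replicate 1, against 0.997 and 1.10 CPM in the other 2 model libraries and 0.697 to 1.38 CPM in the control libraries, where 7 of the 13, Ckm among them, had no count. The 8 endothelial markers summed to 55.5 to 77.3, 107 to 124 and 273 to 317 CPM in treated, model and control libraries, and in treated livers 5 of them were called lower than in model and 8 lower than in control livers. The 8 macrophage markers summed to 392 to 562, 247 to 297 and 165 to 262 CPM in the same order of groups. Of these, 2 (Cd68 and Mpeg1) were called higher in treated than in model livers and 3 higher than in control livers, while Clec4f, a marker of resident macrophages, averaged 112 CPM in treated and 119 CPM in model livers and was not called. The 8 stellate cell markers summed to 343 to 403, 141 to 179 and 187 to 261 CPM, with 2 (Col1a1 and Col3a1) called higher in treated than in model livers and none lower. Relative to control livers the same 2 were called higher and 1 (Lrat) lower. Markers of pericentral hepatocytes did not move together. Of 8, Cyp2e1 was called lower in treated than in model livers (3629 against 6753 CPM on average) and Cyp1a2 higher (1180 against 610.3 CPM), and the median log2 fold change was -0.10. Of 6 periportal markers, 2 (Hal and Gls2) were called lower and none higher in treated than in model livers, with a median of -0.39. The same 2 were called lower than in control livers. Of 14 clock and clock output genes, which move with the time of day, 3 (Per3, Tef and Nr1d2) were called lower and 2 (Arntl and Npas2) higher in treated than in model livers. Relative to control livers, 2 of the 14 (Clock and Tef) were called lower in treated livers and none higher. In model relative to control livers 3 (Arntl, Clock and Npas2) were called lower and none higher, against 0.596% and 0.519% of all genes. The part of other cells, zonation and time of day in the results was not tested. In RNA of a whole sample, fewer hepatocytes and less RNA of a gene per hepatocyte cannot be told apart.

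Promoters of the genes were searched for the element that PPARalpha binds with its partner RXR, a direct repeat of AGGTCA with 1 base between the copies, on both strands. RefSeq windows (build GRCm38.p6) of 300 bases, from 250 before to 50 after a gene start, were at hand for 34 of the 42 genes, in 38 windows. At least 10 of the 12 letters of the repeat were matched in 6 of these 38 windows (15.8%), against 1268 of 32851 windows of all genes (3.86%). No window of the 42 genes matched all 12 letters, which says only that these letters are not in these windows. The 6 best matches are shown, in capitals and along the strand on which the repeat reads, because they are the matches of at least 10 letters in the windows searched; the first matched 11 letters and the other 5 matched 10.
Fabp1: AGGCCATAGGTCA
Etfa: AGGGCAAAGGTAA
Slc25a20: AGGTGAAAGGTCG
Echs1: AGGTCACGGGTCC
Acox2: AGGACAGAGGTGA
Acot4: CGGCCAAAGGTCA

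The whole windows of 3 of these genes follow, 5′ to 3′ on the strand of the gene, with the match in capitals. Fabp1 was the most abundant of the 42 genes, and Etfa and Slc25a20 were called lower in treated than in control livers. Fabp1, Echs1, Acox2 and Acot4, which also have a match, were not called in any comparison. A link between the matches and the changes was not tested. In Fabp1 (chr6:71199629-71199928, plus strand) the match starts at base 184 of the window, and in Etfa (chr9:55512194-55512493, minus strand) at base 174, both as the reverse complement. In Slc25a20 (chr9:108661886-108662185, plus strand) it starts at base 257, just past the gene start.
Fabp1: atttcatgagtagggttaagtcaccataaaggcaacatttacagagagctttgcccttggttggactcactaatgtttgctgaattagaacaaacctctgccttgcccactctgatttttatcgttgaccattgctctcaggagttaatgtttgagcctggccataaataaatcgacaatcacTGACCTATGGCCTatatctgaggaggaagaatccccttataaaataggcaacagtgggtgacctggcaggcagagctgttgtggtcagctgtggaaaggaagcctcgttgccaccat
Etfa: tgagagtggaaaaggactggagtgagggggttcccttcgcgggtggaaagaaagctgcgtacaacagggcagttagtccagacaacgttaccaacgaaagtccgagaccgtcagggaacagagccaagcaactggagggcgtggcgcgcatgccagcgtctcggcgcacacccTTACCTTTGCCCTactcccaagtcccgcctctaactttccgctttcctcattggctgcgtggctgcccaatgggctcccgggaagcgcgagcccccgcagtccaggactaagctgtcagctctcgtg
Slc25a20: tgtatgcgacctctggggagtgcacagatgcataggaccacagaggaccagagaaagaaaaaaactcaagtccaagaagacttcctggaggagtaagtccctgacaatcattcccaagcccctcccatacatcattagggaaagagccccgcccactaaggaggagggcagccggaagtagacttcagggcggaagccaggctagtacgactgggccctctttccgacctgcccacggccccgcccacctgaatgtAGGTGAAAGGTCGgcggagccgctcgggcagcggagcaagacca

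Hadha and Hadhb, which encode the alpha and beta subunits of the mitochondrial trifunctional protein, lie head to head on chromosome 5, Hadha at 30118304 to 30155162 on the minus strand and Hadhb at 30155248 to 30184593 on the plus strand. Their starts in the deposited files are 86 bases apart, so that 1 window covers both of these starts. It is shown because both genes were lower in treated livers by similar amounts. The RefSeq window of Hadha runs from 30154931 to 30155230, so its RefSeq start lies further inside Hadha and outside the window shown. In the window of Hadhb (chr5:30155003-30155302, plus strand) the capitals run from the deposited start of Hadha to that of Hadhb.
Hadhb: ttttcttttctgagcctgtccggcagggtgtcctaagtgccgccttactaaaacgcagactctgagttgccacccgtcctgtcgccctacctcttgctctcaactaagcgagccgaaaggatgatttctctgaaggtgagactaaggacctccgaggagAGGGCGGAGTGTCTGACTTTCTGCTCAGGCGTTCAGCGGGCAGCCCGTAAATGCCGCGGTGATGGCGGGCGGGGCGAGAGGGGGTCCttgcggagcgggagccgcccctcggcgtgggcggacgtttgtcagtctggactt

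Levels between genes were compared per length, in the deposited FPKM, to which the TMM scaling of the CPM was not applied. Fabp1, the liver fatty acid binding protein, averaged 3402 FPKM over the 9 libraries, followed by the thiolases Acaa1b (410.1 FPKM, peroxisomal) and Acaa2 (398 FPKM, mitochondrial), Cyp4a10 (268 FPKM) and Etfb (224 FPKM). The sum over the set is therefore dominated by Fabp1. At the other end lay Ppargc1a (1.07 FPKM), a coactivator of PPARalpha, and the acyl-CoA thioesterases Acot3 (1.86 FPKM) and Acot2 (2.67 FPKM). Summed over the 42 genes, the level was 4513, 6562 and 4810 FPKM in the treated libraries, 7413, 6830 and 6495 FPKM in the model libraries and 9543, 6388 and 7195 FPKM in the control libraries. Treated replicate 2 thus lay within the range of the model libraries and above control replicate 2, and the other 2 treated libraries lay below all model and control libraries.

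**Figure D1:**
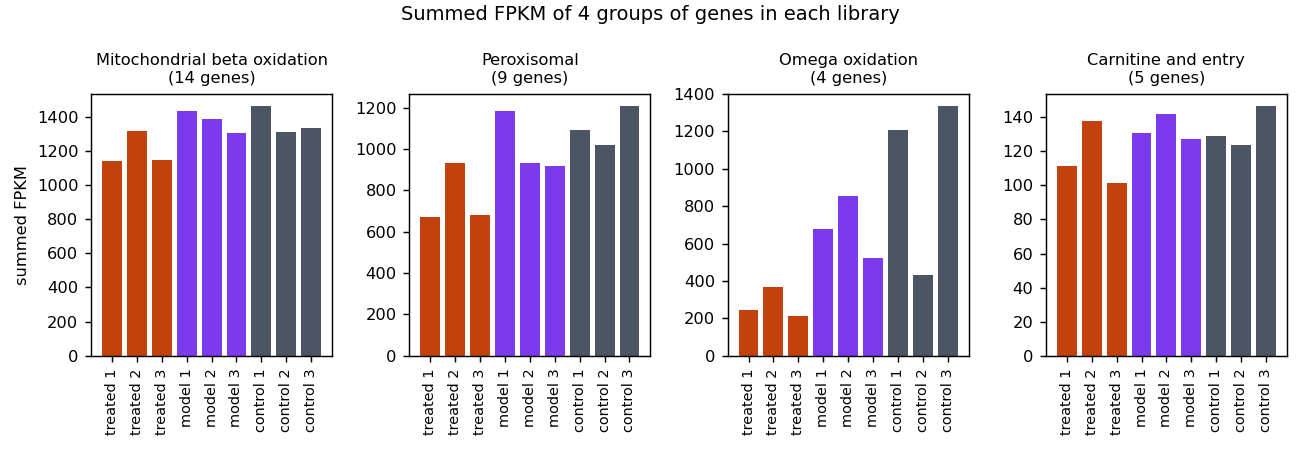
Summed FPKM of the mitochondrial, peroxisomal, omega oxidation and carnitine genes in each of the 9 libraries, with 1 bar per library and no error bars. Omega oxidation genes sum to 212 to 370 FPKM in treated, 525 to 856 FPKM in model and 429 to 1335 FPKM in control libraries, so that control replicate 2 lies far below the other 2 control libraries.

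In treated compared with model livers, genes of all 3 routes of fatty acid oxidation were lower. Of the 42 genes, 13 were called lower and none higher at an adjusted p under 0.05 (31% of the 42), against 4.44% of all 18113 genes called lower and 5.21% called higher (9.65% in either direction). The calls fell on 7 of 14 mitochondrial enzymes, 4 of 9 peroxisomal genes, 1 of 4 omega oxidation genes and Acsl1, which activates long-chain fatty acids. The log2 fold change was below 0 for 37 of the 42 genes, with a median of -0.43, against a median of 0.01 over all genes. In 23 of the 42 genes the 3 treated libraries lay below the 3 model libraries, which held for 15% of all genes, and above them in 1, which held for 16.2% of all genes. The count of 13 depended on single libraries. It was 2 without treated replicate 1 or 3, when 2.22% and 2.53% of all genes were called lower, and 3 without model replicate 1, which carried the muscle transcripts, when 1.89% of all genes were. The count was 6 without model replicate 2 (3.02% of all genes), 7 without control replicate 1 (3.85%) and 7 without model replicate 3 (2.29%).

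In treated compared with control livers, 17 of the 42 genes were called lower (40.5%) and none higher, against 8.47% of all genes called lower and 9.36% called higher (17.8% in either direction). They were 2 of 5 genes of carnitine and entry, 8 of 14 mitochondrial enzymes, 5 of 9 peroxisomal genes, Cyp4a10 and Acsl1. The median log2 fold change was -0.475, against -0.01 over all genes, and 39 of 42 values were below 0. The treated libraries lay below the control libraries in 25 of the 42 genes, against 18% of all genes, and above them in 1, against 19.3% of all genes. The count fell to 9 without treated replicate 1 (5.32% of all genes called lower), 10 without treated replicate 3 (5.76%) and 11 without control replicate 1 (6.26%). Both comparisons use the same treated libraries, so their results are not independent.

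In model compared with control livers, no gene of the 42 was called in either direction by edgeR, against 0.519% of all genes called higher and 0.596% called lower (1.12% in either direction). The model libraries lay above the control libraries in 1 gene and below them in 4 of the 42, which held for 9.71% and 10.2% of all genes. At an unadjusted p under 0.05, 3 of the 42 genes were lower and none higher, against 6.81% of all genes lower and 7.14% higher. DESeq2 called 2 of the 42 lower, Acot1 and Pdk4, against 2.36% of all genes. The median log2 fold change was -0.08, against 0.00 over all genes. The 3 largest differences were those of Pdk4 (log2 fold change -1.83, and -0.89 without control replicate 3), Acot1 (-1.55) and Cyp4a14 (-1.16, SE 0.77, adjusted p = 0.592). The most abundant genes of the larger roles differed less, with log2 fold changes of -0.22 for Cpt2, -0.05 for Acaa2, -0.28 for Acaa1b, -0.48 for Cyp4a10 and -0.18 for Fabp1 (adjusted p = 0.502, 0.926, 0.715, 0.756 and 0.825). A p above the threshold does not show that the groups were alike.

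The size of the falls in treated livers depended on the scaling. With library totals in place of TMM, 2 of the 42 genes were lower and 1 higher than in model livers, and 7 were lower than in control livers. That scaling moved the median of all genes to 0.17 in treated versus model and to 0.20 in treated versus control livers, and 1638 higher and 408 lower genes were then called in treated versus model livers, where TMM gave 943 and 805. In treated versus control livers it called 3021 higher and 819 lower genes, where TMM gave 1696 and 1535. The median of the 42 genes became -0.27 in both comparisons. A change of scaling moves all genes of a comparison by nearly the same amount. The distance of this median from that of all genes therefore stays about the same whatever the data, and says nothing on which scaling is right.

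**Figure D2:**
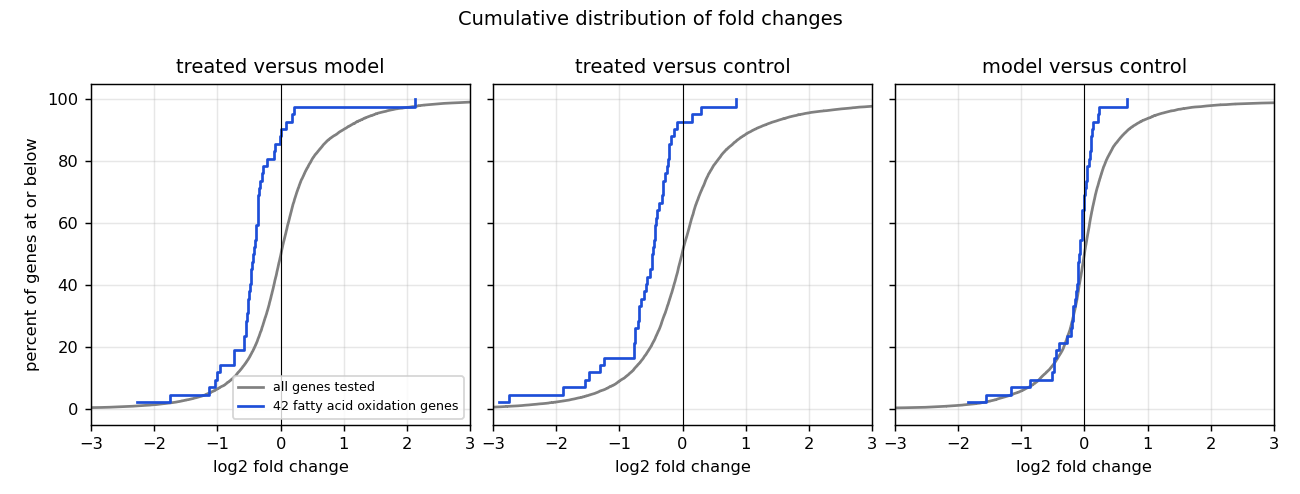
Cumulative distribution of log2 fold changes (horizontal axis) for the 42 fatty acid oxidation genes and for all 18113 genes tested, in the 3 comparisons. Over most of its length, the curve of the 42 genes lies left of that of all genes in treated versus model (median -0.43) and treated versus control livers (median -0.475), and close to it in model versus control livers (median -0.08).

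Among the genes that bring fatty acids into mitochondria, Cpt2, the inner membrane carnitine palmitoyltransferase, had 95.3, 122 and 95.3 CPM in treated, 147, 136 and 127 CPM in model and 142, 166 and 169 CPM in control libraries. The treated libraries were the lowest, without overlap with either other group. It fell in treated relative to control livers (log2 fold change -0.61, SE 0.13, adjusted p = 0.00761, edgeR quasi-likelihood test as throughout), a call kept in each of 16 alternative analyses, and was not called relative to model livers (-0.39, adjusted p = 0.0787). Slc25a20, the carnitine carrier that exchanges acylcarnitines across the inner membrane, had 79.5, 110 and 79.0 CPM in treated, 136, 127 and 111 CPM in model and 133, 119 and 131 CPM in control libraries. A fall relative to control livers was called (log2 fold change -0.51, SE 0.14, adjusted p = 0.0282), which 5 of 16 alternatives did not call, among them without treated replicate 1 or 3 or control replicate 1 or 3, with values up to adjusted p = 0.157 under library totals. Relative to model livers its log2 fold change of -0.48 was not past the threshold (adjusted p = 0.0566).

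Cpt1a, the liver carnitine palmitoyltransferase of the outer membrane and the regulated step of entry, had 261, 336 and 262 CPM in treated, 353, 425 and 387 CPM in model and 356, 293 and 342 CPM in control libraries. The treated libraries lay below the model libraries and overlapped with the controls, and no comparison was called (adjusted p = 0.0664 for treated versus model, with a log2 fold change of -0.44 and an SE of 0.14). The carnitine transporter of the plasma membrane, Slc22a5, ranged from 28.9 to 43.5 CPM in treated, 35.9 to 39.4 CPM in model and 29.8 to 58.8 CPM in control libraries. Carnitine acetyltransferase, Crat, ranged from 36.7 to 63.5 CPM in treated, 41.1 to 65.3 CPM in model and 40.4 to 80.9 CPM in control libraries. Both overlapped between all groups, and control replicate 3 was the highest library for both.

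The first step of the mitochondrial spiral is taken by acyl-CoA dehydrogenases of different chain lengths. Acadvl, for very long chains, had 333, 388 and 340 CPM in treated, 510, 482 and 426 CPM in model and 487, 506 and 493 CPM in control libraries. It fell relative to model livers (log2 fold change -0.42, SE 0.11, adjusted p = 0.0379) and to control livers (-0.49, SE 0.11, adjusted p = 0.012), and the treated libraries lay below all others. Acads, for short chains, had 106, 113 and 117 CPM in treated, 158, 141 and 141 CPM in model and 135, 141 and 140 CPM in control libraries. It fell in both comparisons, by 0.39 relative to model livers and by 0.31 relative to control livers on the log2 scale (adjusted p = 0.025 and 0.0433), with an SE of 0.09 in each. Acadl and Acadm, for long and medium chains, were not called. Their log2 fold changes were -0.34 and -0.49 relative to model livers (adjusted p = 0.0877 and 0.0782). The calls for Acadvl relative to model livers and for Acads in both comparisons were lost in 9, 7 and 12 of 16 alternatives, library totals among them each time.

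The trifunctional protein carries out the next 3 steps on long chains. Hadha had 183, 230 and 185 CPM in treated, 324, 269 and 273 CPM in model and 302, 313 and 270 CPM in control libraries. Hadhb had 112, 142 and 109 CPM in treated, 186, 181 and 161 CPM in model and 200, 187 and 183 CPM in control libraries. In both genes each treated library lay below every model and control library. Hadha fell by 0.54 relative to model and by 0.57 relative to control livers on the log2 scale (SE 0.13 each, adjusted p = 0.0255 and 0.0117). Hadhb fell by 0.54 and 0.65 in the same comparisons (SE 0.12 each, adjusted p = 0.0188 and 0.00407). The call for Hadhb relative to control livers was kept in each of 16 alternatives, and that relative to model livers was lost in 5, as was that of Hadha.

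For shorter chains these steps fall to separate enzymes. Hadh, the hydroxyacyl-CoA dehydrogenase, had 165, 188 and 151 CPM in treated, 260, 208 and 222 CPM in model and 212, 206 and 176 CPM in control libraries. It fell relative to model livers (log2 fold change -0.45, SE 0.13, adjusted p = 0.0491), a call at the threshold that was lost in 11 of 16 alternatives, and overlapped with the controls. Acaa2, the mitochondrial thiolase, had 492, 640.3 and 589 CPM in treated, 788, 692 and 722 CPM in model and 811, 763 and 699.6 CPM in control libraries. It fell relative to control livers by 0.40 on the log2 scale (SE 0.12, adjusted p = 0.0466), again close to the threshold and lost in 12 of 16 alternatives. Echs1, the enoyl-CoA hydratase, was not called (adjusted p = 0.136 relative to model livers), although its treated libraries, at 155 to 194 CPM, lay below the model libraries, at 199 to 239 CPM.

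Unsaturated fatty acids need auxiliary enzymes. Decr1, the mitochondrial dienoyl-CoA reductase, had 115, 161 and 121 CPM in treated, 214, 186 and 166 CPM in model and 190, 180 and 167 CPM in control libraries. Decr1 fell relative to model livers (log2 fold change -0.51, SE 0.14, adjusted p = 0.0499), a call that 12 of 16 alternatives did not keep. Eci1, an enoyl-CoA isomerase, had 73.1, 112 and 82.9 CPM in treated, 148, 147 and 106 CPM in model and 164, 127 and 141 CPM in control libraries. Eci1 fell relative to control livers (log2 fold change -0.69, SE 0.18, adjusted p = 0.0239) and overlapped with the model group through treated replicate 2 and model replicate 3. That call was lost in 5 of 16 alternatives, among them without treated replicate 1 or 3 and control replicate 1 or 3.

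Electrons of the dehydrogenases pass through the electron transfer flavoprotein, made of Etfa and Etfb, to its ubiquinone oxidoreductase, Etfdh. Etfdh had 116, 176 and 141 CPM in treated, 223, 212 and 201 CPM in model and 242, 258 and 228 CPM in control libraries, with no overlap between treated libraries and the others. It fell by 0.55 relative to model livers (SE 0.14, adjusted p = 0.034) and by 0.75 relative to control livers (SE 0.14, adjusted p = 0.00476) on the log2 scale. The first call was lost in 7 of 16 alternatives and the second was kept in each. Etfa had 176, 226 and 188 CPM in treated, 274, 225 and 258 CPM in model and 290, 273 and 250 CPM in control libraries. Etfa fell relative to control livers (log2 fold change -0.46, SE 0.13, adjusted p = 0.0274), a call that 6 of 16 alternatives did not keep, and was not called relative to model livers (-0.36, adjusted p = 0.101). Etfb was not called, at 250 to 272 CPM in treated, 261 to 334 CPM in model and 297 to 352 CPM in control libraries.

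**Figure D3:**
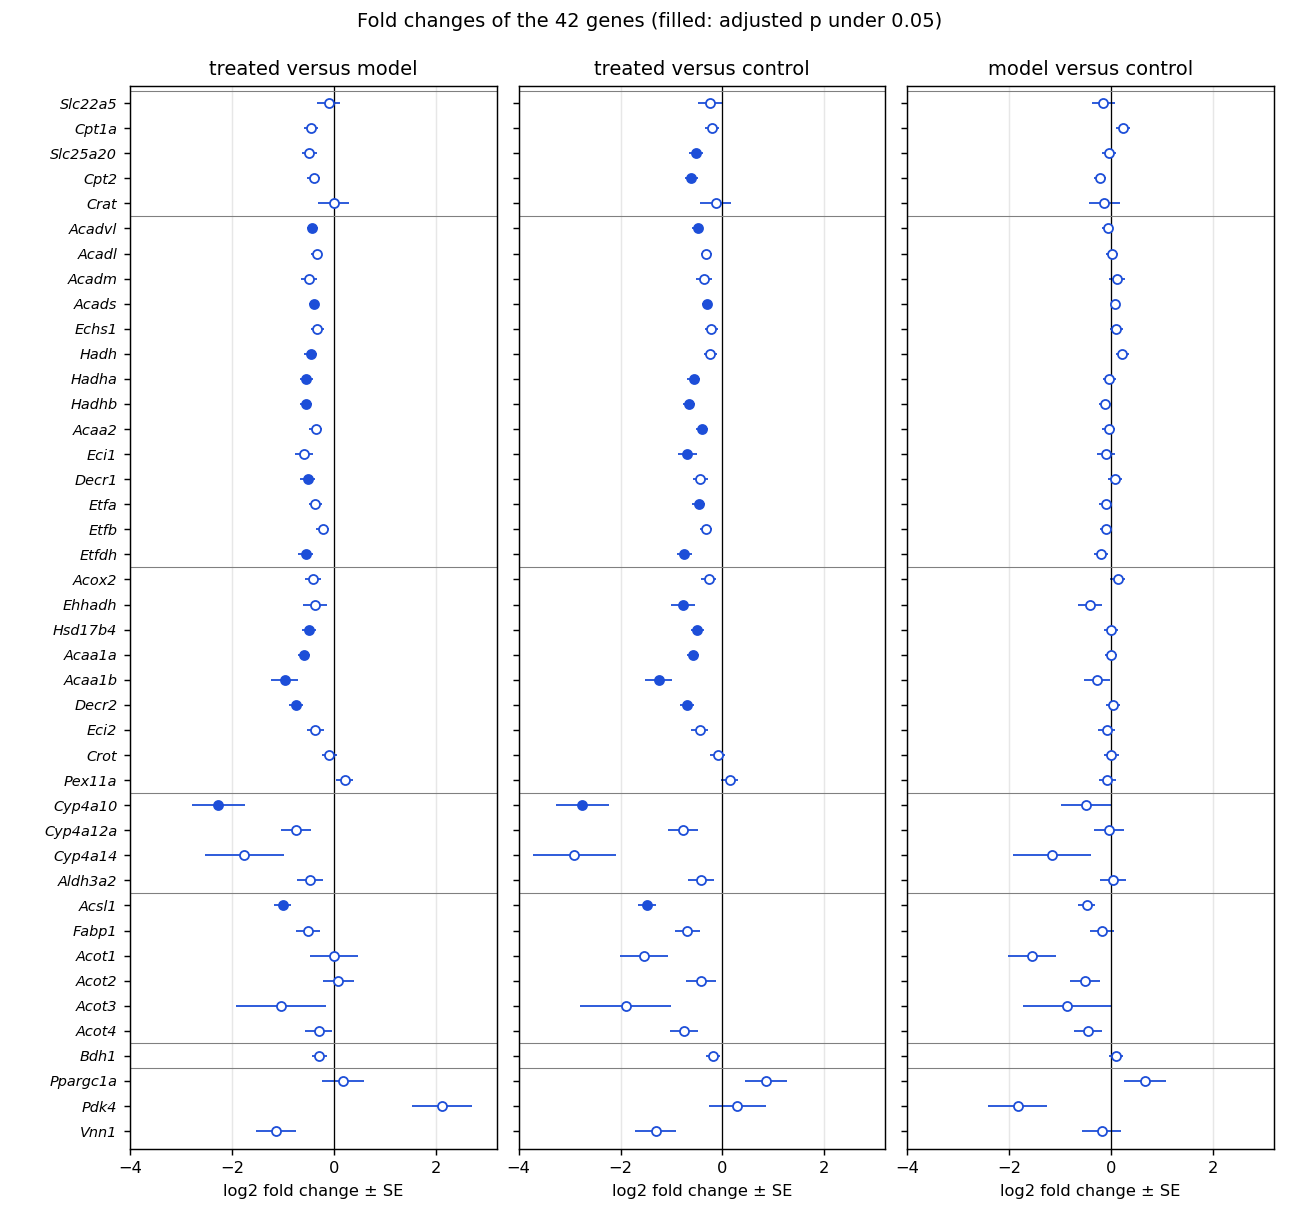
Log2 fold changes of the 42 genes with their standard errors (horizontal bars) in treated versus model, treated versus control and model versus control livers, ordered by role. Filled points have an adjusted p under 0.05. There are 13 filled points in treated versus model, 17 in treated versus control and none in model versus control livers, and each filled point lies below 0.

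In peroxisomes, Acaa1a and Acaa1b encode thiolases with closely related sequences, so how reads were split over the pair is uncertain. Both lie within a stretch of 202 kb on chromosome 9 (119148023 to 119350298). Acaa1b had 391, 695 and 491 CPM in treated, 1433, 781 and 866 CPM in model and 1177, 1156 and 1412 CPM in control libraries. The treated libraries lay below the rest, and model replicate 1 lay far above the other model libraries. Acaa1b fell by 0.97 relative to model livers (SE 0.26, adjusted p = 0.0476) and by 1.25 relative to control livers (SE 0.26, adjusted p = 0.0104) on the log2 scale. The first call was lost in 11 of 16 alternatives, and the second was kept in each. Acaa1a had 225, 284 and 222 CPM in treated, 370, 379 and 346 CPM in model and 377, 341 and 374 CPM in control libraries. It fell in both comparisons by 0.58 on the log2 scale (SE 0.12 each, adjusted p = 0.0129 and 0.00746).

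Decr2, the peroxisomal dienoyl-CoA reductase, had 82.6, 122 and 105 CPM in treated, 184, 171 and 164 CPM in model and 173, 178 and 152 CPM in control libraries. Each treated library lay below each other library. It fell by 0.74 relative to model and by 0.70 relative to control livers on the log2 scale (SE 0.14 each, adjusted p = 0.0083 and 0.00605), and these calls were kept in each of 16 alternatives. Hsd17b4 and Ehhadh are the multifunctional enzymes of the hydratase and dehydrogenase steps. Hsd17b4 had 216, 309 and 266 CPM in treated, 383, 351 and 375 CPM in model and 364, 389 and 357 CPM in control libraries, and fell by 0.49 in both comparisons (SE 0.13 each, adjusted p = 0.0406 and 0.0258). These calls were lost in 11 of 16 alternatives relative to model livers and in 6 relative to control livers. Ehhadh, one of the strongest known targets of PPARalpha, had 272, 328 and 211 CPM in treated, 380, 365 and 299 CPM in model and 348, 399 and 639 CPM in control libraries. Ehhadh fell relative to control livers (log2 fold change -0.77, SE 0.23, adjusted p = 0.0465), where control replicate 3 stood well above the other controls, and without that library the call was lost, as it was in 11 of 16 alternatives in all. Relative to model livers the groups overlapped (log2 fold change -0.36, adjusted p = 0.39).

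The other 4 peroxisomal genes were not called in any comparison. Acox2, the oxidase for branched chains and bile acid intermediates, ranged from 160.2 to 219 CPM in treated, 229 to 265 CPM in model and 196 to 272 CPM in control libraries. Eci2, an isomerase found in peroxisomes and mitochondria, ranged from 183 to 314, 290 to 343 and 314 to 356 CPM in the same groups. Crot, which makes carnitine esters of shortened chains, ranged from 583 to 803, 703 to 818 and 674 to 869 CPM. Pex11a, a peroxisome proliferation factor, ranged from 86.0 to 138, 86.5 to 112 and 90.6 to 113 CPM, the 1 peroxisomal gene whose log2 fold change in treated livers was above 0 (0.22 relative to model and 0.15 relative to control livers, adjusted p = 0.497 and 0.618).

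Among the omega oxidation genes, Cyp4a10 had the largest called fall of the 42 genes. Cyp4a10, Cyp4a12a and Cyp4a14, fatty acid omega hydroxylases of 1 cluster on chromosome 4 (115299046 to 115533649), have close paralogs, so their counts are uncertain. Cyp4a10 had 165, 215 and 95.5 CPM in treated, 772, 1052 and 459.6 CPM in model and 1280, 492 and 1423 CPM in control libraries. The highest treated library thus lay below the lowest model and control libraries. It fell by 2.27 relative to model livers (SE 0.52, adjusted p = 0.037) and by 2.75 relative to control livers (SE 0.53, adjusted p = 0.0121) on the log2 scale. The first call was lost in 10 of 16 alternatives, and the second was lost without treated replicate 1 (adjusted p = 0.0553).

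Cyp4a14 had 143, 187 and 113 CPM in treated, 478, 738 and 279 CPM in model and 1237, 199 and 1894 CPM in control libraries. Treated libraries lay below all others, but control replicate 2 lay below all 3 model libraries. Its log2 fold changes of -1.75 relative to model livers (SE 0.78, adjusted p = 0.236) and -2.91 relative to control livers (SE 0.82, adjusted p = 0.054) did not pass the threshold, and without control replicate 2 both did (adjusted p = 0.0366 relative to model livers). Cyp4a12a, known in mouse for higher levels in males, ranged from 219 to 439 CPM in treated, 394 to 617 CPM in model and 409.5 to 724 CPM in control libraries, with overlap and no call. Aldh3a2, the microsomal fatty aldehyde dehydrogenase that completes omega oxidation, ranged from 108 to 170 CPM in treated, 139 to 253 CPM in model and 159 to 208 CPM in control libraries, also without a call.

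**Figure D4:**
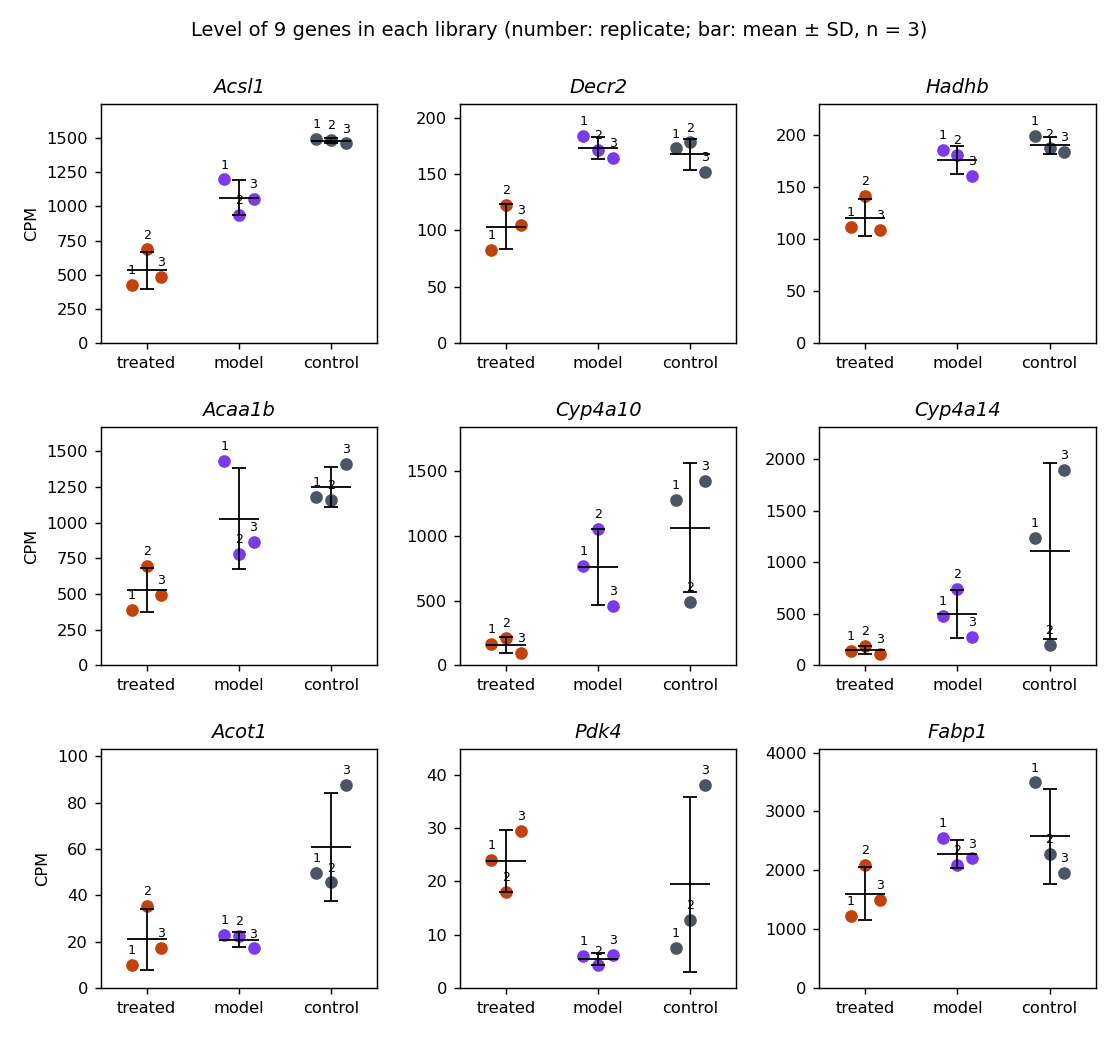
Level in CPM of 9 genes in each library, with the replicate number beside each point and the mean ± SD of 3 libraries per group. Acsl1, Decr2, Hadhb, Acaa1b and Cyp4a10 have each treated library below each model and control library, while Cyp4a14 and Pdk4 show control libraries that differ several-fold from each other.

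Acsl1, the long-chain acyl-CoA synthetase that prepares fatty acids for oxidation and for esterification, had the smallest adjusted p of the 42 genes in both comparisons of treated livers. It had 422, 685 and 485 CPM in treated, 1197, 938 and 1053 CPM in model and 1496, 1488 and 1461 CPM in control libraries, so that the 3 groups did not overlap with each other. It fell by 1.00 relative to model livers (SE 0.17, adjusted p = 0.00497) and by 1.48 relative to control livers (SE 0.17, adjusted p = 0.000303) on the log2 scale, and these calls were kept in each of 16 alternatives. In model relative to control livers its log2 fold change was -0.48 (SE 0.17, unadjusted p = 0.0161), which was not called (adjusted p = 0.228). Fabp1 had 1220, 2094 and 1497 CPM in treated, 2548, 2093 and 2203 CPM in model and 3492, 2283 and 1961 CPM in control libraries, with overlap in each comparison. It was not called (log2 fold changes of -0.51 and -0.69 for treated relative to model and control livers, adjusted p = 0.228 and 0.0758).

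Acyl-CoA thioesterases release free fatty acids from coenzyme A, Acot1 in the cytosol, Acot2 in mitochondria and Acot3 and Acot4 in peroxisomes. The 4 genes lie within 72.5 kb on chromosome 12 (83987861 to 84060402), and Acot1 and Acot2 are nearly identical in sequence, so their counts are uncertain. Acot1 had 10.1, 35.6 and 17.2 CPM in treated, 22.9, 22.4 and 17.0 CPM in model and 49.5, 45.5 and 87.6 CPM in control libraries. The control libraries lay above all others, yet neither comparison with them was called (log2 fold change -1.54, SE 0.48, adjusted p = 0.0678 for treated and -1.55, SE 0.48, adjusted p = 0.214 for model livers). DESeq2 called both. Acot3 had 3.48, 4.92 and 1.48 CPM in treated, 6.88, 10.7 and 2.71 CPM in model and 3.47, 6.52 and 26.8 CPM in control libraries, and its log2 fold change of -1.90 in treated relative to control livers was not called (SE 0.89, adjusted p = 0.2), with control replicate 3 far above every other library. Acot2 and Acot4 were highest in control replicate 3 too, at 11.5 and 92.5 CPM, against 6.10 to 6.999 and 51.3 to 54.0 CPM in the other 2 control libraries.

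Bdh1, which interconverts the ketone bodies acetoacetate and hydroxybutyrate in mitochondria, was the 1 ketone body enzyme of the set. It had 245, 307 and 244 CPM in treated, 353, 307 and 309 CPM in model and 359, 276 and 268 CPM in control libraries, with overlap in each comparison. Its log2 fold changes were -0.28 in treated relative to model (SE 0.14, adjusted p = 0.261), -0.18 in treated relative to control (adjusted p = 0.433) and 0.10 in model relative to control livers (adjusted p = 0.839), none of them called.

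Acat1, the mitochondrial acetoacetyl-CoA thiolase, comes from a wider list of pathway genes. It had 167, 275 and 225 CPM in treated, 417, 336 and 329 CPM in model and 534, 425 and 356 CPM in control libraries. Each treated library lay below each model and control library. Acat1 fell by 0.70 relative to model livers and by 0.98 relative to control livers on the log2 scale (SE 0.20 each, adjusted p = 0.0499 and 0.00674).

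Pdk4, the kinase that shuts off pyruvate dehydrogenase when fatty acids are burned and a target of PPARalpha, had the highest log2 fold change of the 42 genes in treated relative to model livers. It had 23.97, 17.98 and 29.5 CPM in treated, 5.94, 4.25 and 6.14 CPM in model and 7.47, 12.7 and 38.1 CPM in control libraries. Each treated library was several times above each model library. The controls also lay above each model library, and their range took in all treated libraries. The log2 fold change of 2.13 in treated relative to model livers (SE 0.59, adjusted p = 0.068) was not called, but it was past the threshold in 7 of 16 alternatives, with values of 0.00113 to 0.179. In model relative to control livers it was -1.83 (SE 0.58, adjusted p = 0.223), and -0.89 without control replicate 3, the highest library for Pdk4. Skeletal muscle also expresses Pdk4, and in model replicate 1, with 222 CPM of muscle markers, it stood at 5.94 CPM, between model replicates 2 and 3. The part of muscle in the values of Pdk4 was not tested. Relative to control livers the treated value was 0.29 (adjusted p = 0.781), and 1.24 without control replicate 3 (adjusted p = 0.0201).

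Ppargc1a had 11.1, 8.40 and 9.601 CPM in treated, 5.58, 11.8 and 8.24 CPM in model and 5.45, 8.29 and 2.37 CPM in control libraries, and no comparison was called (log2 fold change 0.85, SE 0.41, adjusted p = 0.19 in treated relative to control livers). Vnn1, a pantetheinase and a known target of PPARalpha in mouse liver, had 8.82, 11.3 and 7.59 CPM in treated, 31.6, 16.8 and 12 CPM in model and 33.2, 18.3 and 17.1 CPM in control libraries. The treated libraries were the lowest for Vnn1 without overlap. Its log2 fold changes of -1.13 relative to model (SE 0.39, adjusted p = 0.122) and -1.31 relative to control livers (SE 0.40, adjusted p = 0.0547) were not called, and 6 of 16 alternatives called the second.

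**Figure D5:**
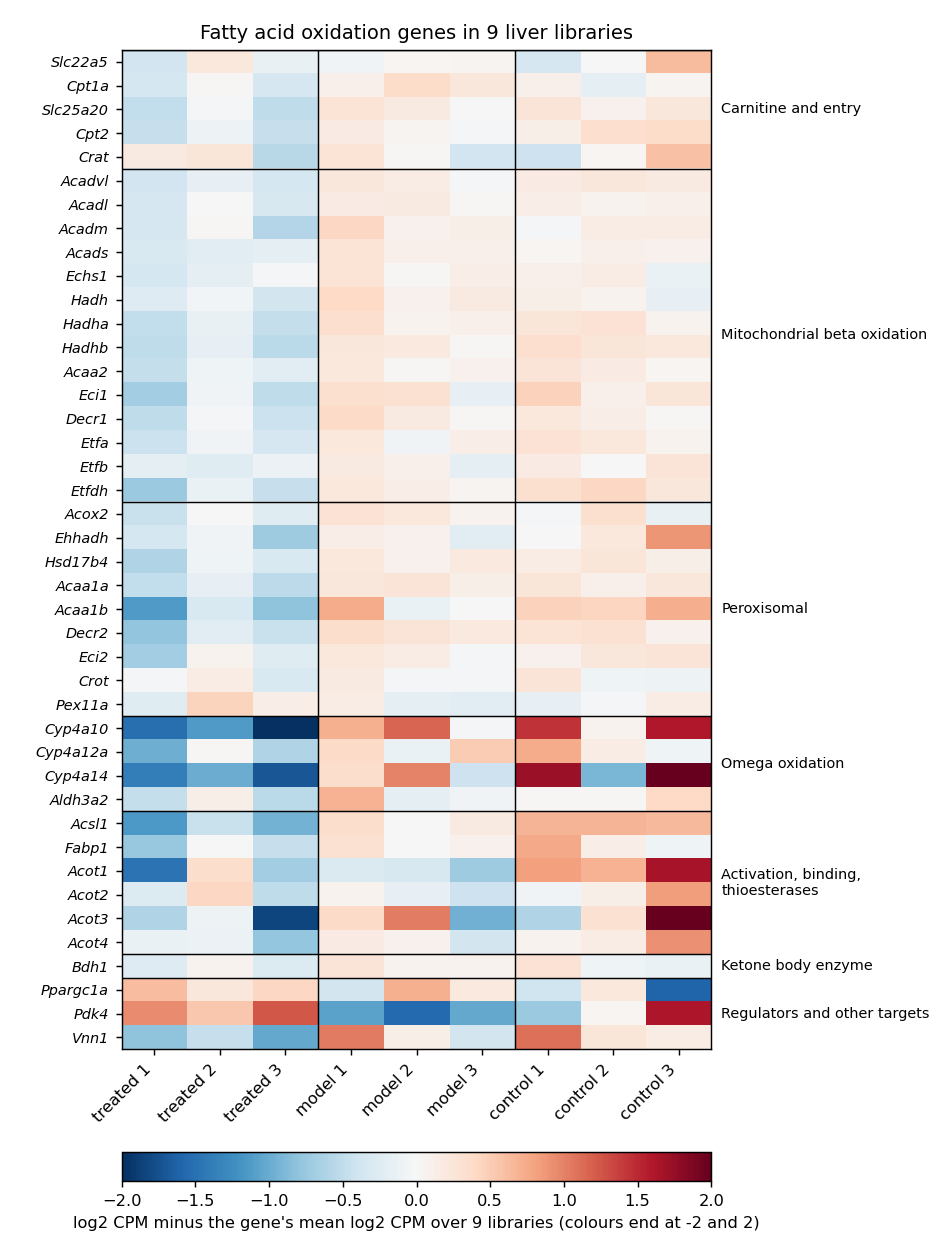
Heat map of the 42 genes (rows, ordered by role) in the 9 libraries (columns). Colour gives log2 CPM minus the gene's mean over the 9 libraries, with colours ending at -2 and 2. Treated replicates 1 and 3 are below the mean for most genes, treated replicate 2 lies closer to it, and control replicates 1 and 3 stand out for Cyp4a10 and Cyp4a14.

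Treated replicate 2 was the highest treated library for 37 of the 42 genes and model replicate 1 the highest model library for 32, while the highest control library was replicate 1 for 16, replicate 2 for 10 and replicate 3 for 16 genes. The coefficient of variation between libraries had a median of 20.0% over the 42 genes in treated, 11.1% in model and 10.7% in control livers, against 18%, 17.7% and 18.6% over all genes tested. In control livers the steadiest gene was Acsl1, at 1.26%, and the most variable was Acot3, at 103%. Treated replicate 2 also had the lowest sum of muscle markers of the treated group, at 155 CPM, and model replicate 1 the highest of the model group.

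A wider list, mostly of genes of fatty acid metabolism and PPARalpha action, also held more lower than higher genes in treated livers. Enzymes of amino acid breakdown, such as Gcdh, are on it too. Of the 90 genes of this list tested, 24 were lower (26.7%) and 3 higher (3.33%) relative to model livers, against 4.44% and 5.21% of all genes, with -0.32 as the median log2 fold change. Relative to control livers 35 were lower (38.9%) and 8 higher (8.89%), against 8.47% and 9.36% of all genes, with a median of -0.40. The shares of higher genes thus did not exceed those of all genes, and relative to control livers they were close. In model relative to control livers 1 was lower and 1 higher (1.11% each), against 0.596% and 0.519% of all genes. Slc27a2, a very long chain acyl-CoA synthetase and fatty acid transporter, averaged 816 ± 136 CPM in treated, 1739 ± 116 CPM in model and 1872 ± 152 CPM in control livers (SD of 3 libraries), a log2 fold change of -1.09 relative to model livers (SE 0.14, adjusted p = 0.00102). Sirt3, the mitochondrial deacetylase of oxidation enzymes, averaged 55.0 ± 4.25, 91.5 ± 9.36 and 101 ± 6.54 CPM in the same groups (-0.73, SE 0.11, adjusted p = 0.00221). Lipe, the hormone-sensitive lipase, fell by 1.16 (adjusted p = 0.00122), the kinase gene Pdk1 by 0.89 (adjusted p = 0.00151), Cyp8b1, a sterol hydroxylase, by 1.14 (adjusted p = 0.00174) and Gcdh, glutaryl-CoA dehydrogenase, by 0.67 (adjusted p = 0.00345) on the log2 scale, all in treated relative to model livers.

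The 3 higher genes of that comparison were Ucp2, a mitochondrial carrier, Oxct1, the enzyme with which other tissues use ketone bodies and which hepatocytes lack, and Acss1, a mitochondrial acetyl-CoA synthetase. Ucp2 averaged 75.8 ± 8.99 CPM in treated and 37.0 ± 2.80 CPM in model livers (log2 fold change 1.03, SE 0.12, adjusted p = 0.000649). Oxct1 averaged 11.02 ± 1.53 CPM in treated, 4.56 ± 1.04 CPM in model and 3.77 ± 1.03 CPM in control livers, and rose by 1.27 relative to model livers (SE 0.25, adjusted p = 0.00995) and by 1.55 relative to control livers (SE 0.25, adjusted p = 0.00195) on the log2 scale. Acss1 averaged 1.84 ± 0.453 CPM in treated and 0.637 ± 0.00925 CPM in model livers (adjusted p = 0.0286). Oxct1 was at 4.94 CPM in model replicate 1, with its muscle transcripts, and at 5.36 and 3.38 CPM in the other 2 model libraries. The part of macrophages, of which 2 of 8 markers were called higher in this comparison, in the values of Ucp2 and Oxct1 was not tested. Nor was the part of muscle in the values of Oxct1 tested. Bdh2, a cytosolic hydroxybutyrate dehydrogenase, averaged 5.41 ± 3.37 CPM in treated and 9.01 ± 1.62 CPM in model livers and was not called (adjusted p = 0.294).

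Relative to control livers, higher genes of the list in treated livers also included Acsl4, an acyl-CoA synthetase for arachidonate, Cidec, a lipid droplet protein, and Cd36, a fatty acid translocase found on macrophages and muscle as well. Cd36 averaged 48.0 ± 11.5 CPM in treated and 8.75 ± 1.53 CPM in control livers (log2 fold change 2.46, SE 0.53, adjusted p = 0.0197). In the model group it stood at 40.6 CPM in replicate 1, the library with muscle transcripts, and at 8.86 and 18.3 CPM in the other 2 libraries, and the part of muscle in its values was not tested. Acsl4 rose by 1.15 (SE 0.17, adjusted p = 0.00101), Cidec by 1.62 (SE 0.39, adjusted p = 0.0154), Ucp2 by 1.56 (SE 0.12, adjusted p = 3.3e-05) and Acss1 by 1.36 (SE 0.37, adjusted p = 0.0286) on the log2 scale. Among the lower genes, Slc27a2 fell by 1.20 (adjusted p = 0.00029), Sirt3 by 0.88 (adjusted p = 0.000408), Lipe by 1.05 (adjusted p = 0.00101), Cyp8b1 by 1.07 (adjusted p = 0.00118), Cyp4v3, an omega hydroxylase, by 0.93 (adjusted p = 0.000598), and Mlycd, malonyl-CoA decarboxylase, by 0.66 (adjusted p = 0.00105). Cyp4v3 and Acsl4 were the 2 genes of the list called in model relative to control livers, Cyp4v3 at 268 ± 11.3 CPM in model and 425 ± 42.9 CPM in control livers (adjusted p = 0.0305) and Acsl4 at 33.7 ± 7.25 CPM in model and 19.1 ± 0.694 CPM in control livers (adjusted p = 0.0445).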

How the data were processed

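The deposited files held estimated counts per gene, as whole numbers, and the authors' FPKM per gene and per transcript. Reads were aligned with HISAT2 per the submitters' processing notes. No source used here gives its version, the counting tool or the genome build; coordinates of 39 of the 42 genes equalled GENCODE M21 (GRCm38). Counts were tested with edgeR 4.0.16 (R 4.3.3): TMM, filterByExpr (minimum count 10, minimum total 15), 1 robust quasi-likelihood fit over the 9 libraries, and Benjamini-Hochberg adjustment over 18113 genes in each of 3 comparisons, called under 0.05. CPM used a TMM-scaled library size. The fit was also run on simulated counts with planted changes, drawn with the spread estimated from these data and with no deviating library. Its outcome is not given here, and it cannot show how single libraries affect the calls. The 16 alternatives used DESeq2 1.42.0, limma 3.58.1, other scalings, no filter, 2 groups, a replicate block, and 1 library left out. Genes, lists and roles were chosen with earlier results of these data known. Named genes are the called members, the 3 largest uncalled differences per comparison, the most abundant member of each role without a call, 9 listed members, and, of the wider list, up to 6 called genes per direction by p with the ketone body enzymes. Results of some genes covered by it are not reported here. Transcript counts were not used.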

Additional observations from a re-analysis of the deposited data

How the results depend on the processing

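No called log2 fold change of the 42 genes changed sign in the 16 alternatives, but counts of calls moved. In treated versus model livers, where 13 genes were lower, 2 were lower with library totals, 23 with DESeq2 (which called 7.29% of all genes lower), 8 with only the 2 groups fitted and 7 with a replicate block, and 2 to 17 when 1 library was left out. Pdk4 became the 1 higher gene with library totals, DESeq2, limma-voom, only the 2 groups and the replicate block, and the count was 0 to 1 with 1 library left out. In treated versus control livers, where 17 were lower, 7 were lower with library totals and 9 to 23 with 1 library left out, with 0 to 1 higher. In model versus control livers DESeq2 called 2 lower, and leaving out 1 library gave 0 to 0 in both directions. Calls kept in all 16 alternatives were 2 of 13 (Decr2 and Acsl1) and 6 of 17 (Cpt2, Hadhb, Etfdh, Acaa1b, Decr2 and Acsl1). Same-numbered libraries did not deviate together (r of -0.081 to 0.057, best with their own number in 4 of 18 cases), so the replicate block rests on numbers that share no stated origin. Apart from library totals, whose shift of all genes is given with the results, the cause of these changes was not tested.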

Other observations

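In the deposited transcript table, 36 of the 42 genes had the same most abundant transcript in all 9 libraries, and in 33 genes that transcript held over 80% of the gene's FPKM. The transcript with the highest mean FPKM over the 9 libraries was annotated as protein coding in each of the 42 genes. In Acaa1a that transcript led in 6 of the 9 libraries, and a retained intron transcript held 33.4% on average. Exons of 14 of the 42 genes overlap those of another gene, and the sources used here do not say whether reads were counted by strand.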
